A study of Mus musculus with 3 samples.

Results

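Alternative splicing was compared between the hippocampus of a mouse that expressed an expanded CUG repeat and received CWG-cPIP and the hippocampus of a mouse that expressed a short CUG repeat and received vehicle. These are 2 of the 3 libraries of the series, each from 1 mouse. All 5 tables of the pair were used. They list exons that are skipped (SE), alternative 5′ and 3′ splice sites (A5SS, A3SS), pairs of exons called mutually exclusive (MXE), and introns that are retained (RI). The pair lists 6983 of the 8727 events found in any table of the series. An event was kept when its inclusion and skipping counts summed to 20 or more in both libraries, which left 3096 events of 1942 genes. Counts were also summed over all listed events of a gene. Of 4090 genes listed, 1556 reached 50 counts in at least 1 of the libraries.

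The mice were wild-type C57BL/6J males, labelled 10 weeks old. An AAV9 vector carrying 10 CTG repeats (CUG10) or 300 CTG repeats (CUG300) in an Egfp transcript was injected into CA1 on both sides, together with CWG-cPIP or vehicle, and RNA was taken 10 days after gene transfer. The groups used here are CUG300 + CWG-cPIP and CUG10 + vehicle, and CUG300 + vehicle is given beside them as the third library. AAV9 and Egfp are shared by all 3 mice. The CWG-cPIP and CUG10 mice therefore differ in both repeat length and compound, and these cannot be told apart within the pair. With 1 mouse in a group there is no replicate check: each interval and test covers the counting error of 2 libraries and says nothing of the spread between mice.

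In myotonic dystrophy type 1, RNA with expanded CUG repeats collects in nuclear foci and holds MBNL proteins there. MBNL proteins switch many exons from their fetal to their adult form, so exons of genes such as Mapt, Grin1 and App, and of the MBNL genes themselves, are common readouts in brain. CWG-cPIP is a cyclic pyrrole-imidazole polyamide that binds CAG and CTG repeat DNA. The pair addresses how far splicing in the treated CUG300 mouse differs from that in the CUG10 mouse. PSI (percent spliced in) is given here on a scale from 0 to 1, as the share of the longer form, or of the exon that comes first in the transcript for MXE, after division by the effective length of each form.

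The sequences of 4 alternative regions show what is spliced in or out in the genes the results turn on. Capitals mark the alternative region and lower case the 15 bases of the neighbouring exons in an annotated transcript. All 4 are coding sequence whose length is a multiple of 3, read 5′ to 3′ from GENCODE M21 transcripts on mm10. The 30-nt exon of Ppp3ca lies at chr3:136932011-136932040 on the plus strand, the 57-nt 3′ splice site extension of Prpf19 at chr19:10898926-10898982 on the plus strand, the 6-nt exon of Nsmf at chr2:25057965-25057970 on the plus strand, and the 87-nt exon of Mapt at chr11:104287123-104287209 on the plus strand.
Ppp3ca: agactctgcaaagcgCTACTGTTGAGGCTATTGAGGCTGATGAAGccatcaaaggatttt
Prpf19: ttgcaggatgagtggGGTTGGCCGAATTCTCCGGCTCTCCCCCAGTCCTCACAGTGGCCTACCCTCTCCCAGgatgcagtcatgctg
Nsmf: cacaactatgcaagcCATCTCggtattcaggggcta
Mapt: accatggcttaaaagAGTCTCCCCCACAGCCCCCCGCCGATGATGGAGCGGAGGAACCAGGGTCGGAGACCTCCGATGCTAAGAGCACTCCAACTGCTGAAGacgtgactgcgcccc

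The listed events hold 445199 counts in the CWG-cPIP library and 475380 in the CUG10 library, with a median of 21 and 18 counts per event. Skipped exons make up 2363 of the 3096 kept events, followed by 280 A3SS, 176 MXE, 167 A5SS and 110 RI. PSI was higher in the CWG-cPIP library at 1563 events (50.5%), lower at 1519 and equal at 14. Events of a gene share reads, so these shares are descriptions. Differences were mostly small: 1628 events (52.6%) differed by less than 0.05 and the median absolute difference was 0.0468. Of the 110 retained introns, 67 had higher PSI in the CWG-cPIP library (60.9%). In the other types the share was between 48.5% of A5SS and 51.4% of A3SS.

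A PSI difference of 0.15 or more was found at 265 of the 3096 events, which is 8.56%. Of these, 148 were higher and 117 lower in the CWG-cPIP library. The share fell with depth, from 13.03% of the 1527 events whose shallower library had 20 to 49 counts to 2.00% of the 401 events with 200 or more. By type it was 7.15% of SE, 8.98% of A5SS, 11.9% of MXE, 14.5% of RI and 15.7% of A3SS. A two-sided Fisher's exact test with Benjamini-Hochberg adjustment over all kept events left 5 of the 265, or 0.161% of the kept events, and the Newcombe 95% interval of the difference was without 0 at 75 of the 265. Close to the size threshold, an A3SS event of Smarca4 was outside it with a difference of -0.1499 and an exon of Celsr2 inside it with 0.1502.

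**Figure D1:**
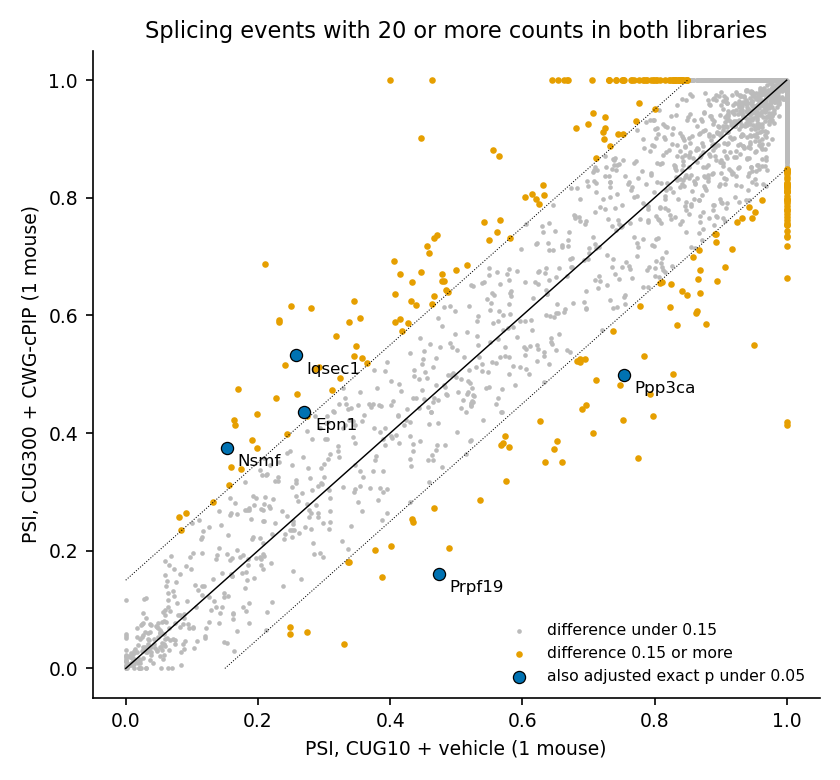
PSI of the 3096 kept events in the CUG10 + vehicle library (x axis) and the CUG300 + CWG-cPIP library (y axis), 1 mouse each. Orange points are the 265 events that differ by 0.15 or more (dotted lines), and the 5 blue points also passed the adjusted exact test: Ppp3ca and Prpf19 lie below the diagonal, and Iqsec1, Epn1 and Nsmf above it.

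Ppp3ca encodes the catalytic subunit A alpha of calcineurin, the calcium-dependent phosphatase of synapses. Its 30-nt exon was included at 0.754 in the CUG10 library (401 inclusion and 93 skipping counts), at 0.699 in the CUG300 + vehicle library (225 and 69) and at 0.499 in the CWG-cPIP library (269 and 192). The exact 95% interval in the CWG-cPIP library, 0.452 to 0.547, did not overlap those of the CUG10 library (0.710 to 0.795) or the CUG300 + vehicle library (0.638 to 0.755). The difference between CWG-cPIP and CUG10 was -0.255 (Newcombe 95% interval -0.316 to -0.191, adjusted exact p = 3.88e-11). It was the only skipped exon to pass both the size threshold and the test.

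Prpf19 encodes a ubiquitin ligase of the spliceosome. The A3SS form that carries the additional 57 nt made up 0.473 in the CUG10 library (57 counts), 0.311 in the CUG300 + vehicle library (18 counts) and 0.161 in the CWG-cPIP library (71 counts). The interval of the CUG300 + vehicle library, 0.134 to 0.560, overlapped both others. The difference was -0.312 (interval -0.455 to -0.160, adjusted exact p = 0.0155), the largest in size of the 5.

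Iqsec1 encodes a guanine nucleotide exchange factor for ARF6 at postsynaptic sites. The longer 3′ splice site form, with 1930 additional nt at chr6:90661026-90662955 that are partly coding, was at 0.258 in the CUG10 library, 0.281 in the CUG300 + vehicle library and 0.533 in the CWG-cPIP library. The difference was 0.275 (interval 0.144 to 0.398, adjusted exact p = 0.00606). It rests on few reads of the short form, with 19 skipping counts in the CWG-cPIP library and 40 in the CUG10 library. The 587 and 377 inclusion counts include reads that lie wholly within the additional 1930 nt. Without division by form length the difference was 0.0646, under the size threshold.

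The remaining 2 called events are mutually exclusive exons. Epn1 encodes epsin 1, an adaptor of clathrin-mediated endocytosis. The 253-nt exon at chr7:5083730-5083982 was at 0.270 in the CUG10 library, 0.234 in the CUG300 + vehicle library and 0.437 in the CWG-cPIP library, a difference of 0.166 (interval 0.119 to 0.212, adjusted exact p = 7.09e-09). As a skipped exon the same 253-nt exon was included at 0.956 in the CUG10 and 0.969 in the CWG-cPIP library, and its partner of 250 nt at 0.993 and 0.992. Both exons were thus in most transcripts of both libraries, and the MXE value compares read counts on 2 exons that occur together.

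Nsmf encodes a factor that carries NMDA receptor signals from synapses to the nucleus. Set against a 69-nt exon, its 6-nt exon was at 0.153 in the CUG10 library, 0.188 in the CUG300 + vehicle library and 0.375 in the CWG-cPIP library, a difference of 0.222 (interval 0.113 to 0.322, adjusted exact p = 0.0223). As skipped exons, the 6-nt exon was at 0.925 and 1.00 in the CUG10 and CWG-cPIP libraries, and the 69-nt exon at 0.862 and 0.715. An annotated transcript holds both exons for Epn1, for Nsmf and for 144 of the 176 kept MXE pairs. In 18 of those 144 pairs the size threshold was passed.

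**Figure D2:**
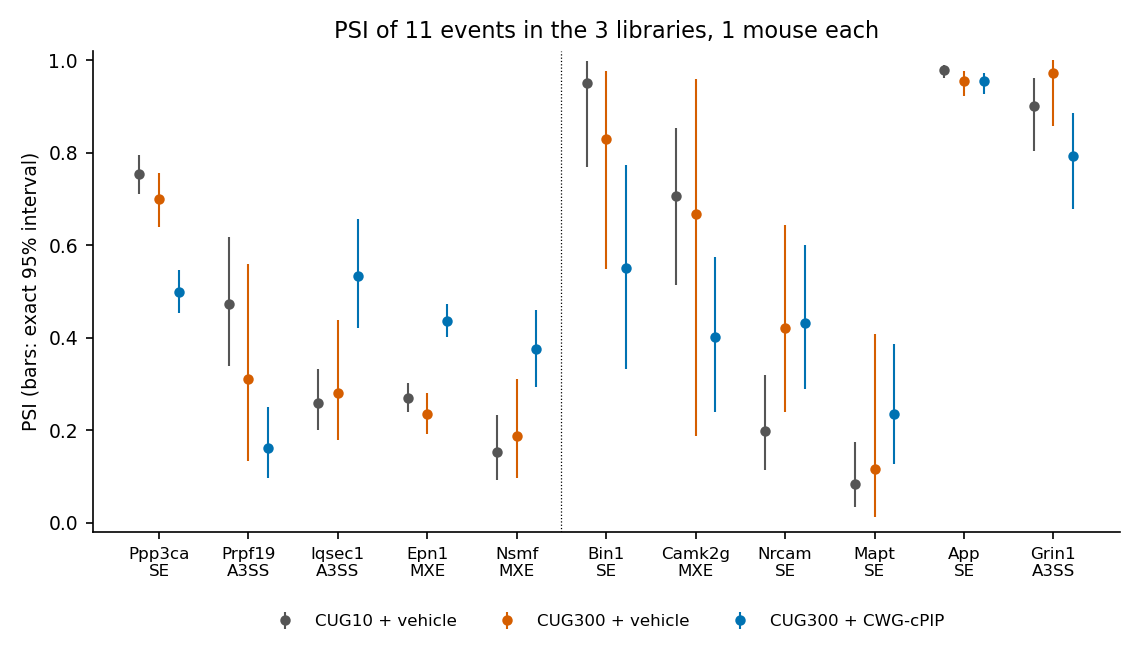
PSI of 11 events in the 3 libraries, with the exact 95% interval of each; the 5 events left of the dotted line are the called ones. The CWG-cPIP value lies outside the interval of the CUG10 value for all 11 events. The CWG-cPIP and CUG10 intervals are apart for the 5 called events and overlap for the events to the right. App is near 1 in each library.

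A further 8 events passed the adjusted exact test at a smaller difference, between 0.0220 and 0.134 in size. Of these, 5 are MXE pairs. Dnm1 encodes dynamin 1, the GTPase that cuts synaptic vesicles from the membrane. The first of its exclusive exons, 139 nt long, was at 0.203 in the CUG10 library, 0.120 in the CUG300 + vehicle library and 0.337 in the CWG-cPIP library (adjusted exact p = 0.000541). No annotated transcript holds both of its exons. In Ptgds, Tpt1 and Edf1, which encode prostaglandin D synthase, a calcium-binding growth protein and a transcriptional coactivator, the first exon was higher in the CWG-cPIP library by 0.106 to 0.128, and an annotated transcript holds both exons. In Pkm, which encodes pyruvate kinase, the first exclusive exon fell from 0.916 in the CUG10 library to 0.846 in the CWG-cPIP library (adjusted exact p = 3.03e-05), with 0.771 in the CUG300 + vehicle library.

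The other 3 smaller differences concern long regions. The 2124-nt exon of Rtn3, a reticulon of the endoplasmic reticulum, was at 0.158 in the CUG10 library, 0.103 in the CUG300 + vehicle library and 0.260 in the CWG-cPIP library (adjusted exact p = 0.00897). The 1092-nt exon of Ndufv3, a subunit of respiratory complex I, was at 0.0251, 0.0217 and 0.0749 in the same order (adjusted exact p = 9.77e-06). The 816-nt 3′ splice site region of Eif4a2, a translation initiation helicase, was at 0.0182, 0.0175 and 0.0402 (adjusted exact p = 3.36e-05). All 3 regions were more included in the CWG-cPIP library than in the other two.

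The exons used as readouts of MBNL function in brain were covered to very different depths. The list of DM1 and MBNL brain targets had 49 kept events in 18 genes, and 5 of them (10.2%, beside 8.56% of all events) passed the size threshold, 4 higher and 1 lower, with none called by the adjusted exact test. Their median difference was 0.0167, beside 0.000824 over all kept events. The 87-nt exon of Mapt, which encodes the microtubule protein tau, was at 0.0842 in the CUG10 library (7 inclusion and 35 skipping counts), 0.116 in the CUG300 + vehicle library (2 and 7) and 0.235 in the CWG-cPIP library (14 and 21). Its difference of 0.1504 lies at the threshold (interval 0.0208 to 0.296, exact p = 0.0384 before and 1.00 after adjustment). The deepest of the 3 kept Mapt events was a 93-nt exon. It was at 0.917 in the CUG10 library (52 counts), 0.914 in the CUG300 + vehicle library (25 counts) and 1.00 in the CWG-cPIP library (97 counts). That difference was 0.0828 (interval -0.0184 to 0.252), under the threshold, as was the 0.0457 of a 50-nt exon.

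Grin1 encodes the obligatory subunit of NMDA receptors. All of its 6 kept events had lower PSI in the CWG-cPIP library, with differences from -0.107 to -0.0041, and none passed the size threshold. For its A3SS event with 356 additional nt, PSI was 0.900 in the CUG10 library, 0.971 in the CUG300 + vehicle library and 0.793 in the CWG-cPIP library (difference -0.107, interval -0.233 to 0.0184). The 111-nt exon, in the event with more counts, was at 0.642 in the CUG10 library, 0.713 in the CUG300 + vehicle library and 0.598 in the CWG-cPIP library. In the other event with this exon it was at 0.523, 0.622 and 0.447 in the same order. The Grin1 events share reads and are not independent of each other.

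App encodes the amyloid precursor protein. Its 54-nt exon was at 0.978 in the CUG10 library, 0.954 in the CUG300 + vehicle library and 0.954 in the CWG-cPIP library (difference -0.0243, interval -0.0522 to -0.000263, adjusted exact p = 1.00). Its 168-nt exon was at 0.0335, 0.0847 and 0.0498 in the same order. With more than 370 counts in both libraries of the pair for these 2 exons, the App values are among the best determined of the list.

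Mbnl1 had 5 listed events and none reached 20 counts in both libraries, so no PSI is compared for its exons. Its 54-nt exon had 12 counts in the CWG-cPIP library, 3 in the CUG10 library and 2 in the CUG300 + vehicle library. The other members past the size threshold were Camk2g, Fxr1 and Map4k4, all with fewer than 60 counts in each library. Camk2g encodes the gamma subunit of CaMKII, and the first exon of its MXE pair was at 0.706 in the CUG10 library and 0.401 in the CWG-cPIP library (adjusted exact p = 0.888). With 5 counts in the CUG300 + vehicle library, its value there, 0.667, has an interval of 0.187 to 0.960.

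Among the lists with 20 or more kept events, synaptic adhesion and presynaptic release held the largest share of events past the size threshold. It was 12 of 80 (15%), 5 higher and 7 lower, and these events came from 9 genes. Ion channels had 3 of 23 (13.04%), glutamate receptors and the postsynaptic density 6 of 59 (10.2%) and the cytoskeleton 6 of 68 (8.82%). RNA-binding splicing regulators, with 9 of 105 (8.57%), were at the share of all events, 8.56%. Events of a gene share reads, and depth was not matched between the lists. The called events of Ppp3ca and Iqsec1 belong to the postsynaptic list and that of Epn1 to the presynaptic list.

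The 2 synaptic exons described here were shallow. A 108-nt exon of Bin1, a membrane-bending protein of endocytosis, was at 0.951 in the CUG10 library (49 counts), 0.830 in the CUG300 + vehicle library (26 counts) and 0.550 in the CWG-cPIP library (28 counts; adjusted exact p = 0.375). A 153-nt exon of Nrcam, a neuronal adhesion protein, was at 0.199 in the CUG10 library and at 0.420 and 0.432 in both CUG300 libraries (adjusted exact p = 0.795). Neither reached the adjusted threshold.

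Among channel, receptor and cytoskeletal genes, the first exon of an MXE pair of Cacnb3, a calcium channel beta subunit, was at 0.747 in the CUG10 library and 0.481 in the CWG-cPIP library. In Gria3, an AMPA receptor subunit, a 115-nt exon was at 0.862 and 0.604, and in Kif1a, an axonal kinesin motor, a 27-nt exon at 0.823 and 0.615. Enah, an actin regulator, had a 732-nt A3SS region at 0.447 and 0.901, with 5 and 1 counts of the short form, and differed by only 0.0920 without division by form length. Dbn1, the spine actin protein drebrin, had a 3-nt A3SS region at 0.199 and 0.375. For these 5 the adjusted exact p was between 0.888 and 1.00.

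Of the 9 events of splicing regulators past the threshold, 8 were higher in the CWG-cPIP library, beside 148 of the 265 among all kept events. None of the 9 passed the adjusted exact test. Rnpc3, a protein of the minor spliceosome, had a 1652-nt A3SS region in its UTR at 0.210 in the CUG10 library, 0.127 in the CUG300 + vehicle library and 0.688 in the CWG-cPIP library, with only 2 counts of the short form in the last, and a difference of 0.120 without division by form length. An exon in the UTR of Srsf9, an SR protein, was at 0.260, 0.131 and 0.467, and a 21-nt A3SS region of Hnrnpc at 0.466, 0.481 and 0.633. The exception among the 4 named was Qk, an RNA-binding protein of glia, whose A3SS region was at 0.752 in the CUG10 library, 0.456 in the CUG300 + vehicle library and 0.423 in the CWG-cPIP library, a difference of -0.329 that was -0.0517 without division by form length. Adjusted exact p was 0.406 for Rnpc3 and 1.00 for the other 3.

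Genes of basic metabolism showed no event past the size threshold. The list of oxidative phosphorylation had 0 of 55 and ribosomal proteins 0 of 33, with median absolute differences of 0.0155 and 0.0045. Neuron markers had 0 of 33. Myelin markers had 2 of 17, the Qk event and a 66-nt exon of Bcas1, at 0.346 in the CUG10 and 0.531 in the CWG-cPIP library. The lists of MHC, interferon, microglia, astrocyte, endothelial, choroid plexus, immediate early, p53, chaperone and extracellular matrix genes had 2 to 11 kept events each and none past the threshold, and those of T cells and the cell cycle had no kept event.

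Very short exons were past the size threshold more often than others. Of the 53 kept skipped exons of 27 nt or less, 8 were past it (15.1%), 3 higher and 5 lower. Longer exons whose length is a multiple of 3 had 84 of 1060 (7.92%), and the rest 77 of 1250 (6.16%). These shares are descriptions and depth was not matched between the classes.

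The third library sets the size of these differences beside those of the other pairs, which share libraries with this one. Over the 1338 events listed in all 3 pairs with 20 or more counts in all 3 libraries, 7.40% were past the size threshold between CWG-cPIP and CUG10. Between CUG300 + vehicle and CUG10 it was 11.7%, and between CWG-cPIP and CUG300 + vehicle 14.4%. The median absolute difference was 0.0375, 0.0407 and 0.0440 in the same order. Over these events the count called by size and adjusted exact test was 5, 10 and 25. Depth moves with this order: over the 6305 events of the pair with a count in the third library, the CUG300 + vehicle library held 379851 counts, against 437517 for CWG-cPIP and 468035 for CUG10. The part of depth in these shares was not tested.

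The gene totals give a second view of the pair. They sum reads over the alternative events of a gene and so count only its listed exons and junctions, and a gene without a listed event is not seen. A read can count in more than 1 event of a gene, so the intervals of genes with several events can be too narrow. Levels are in CPM, counts scaled to a library total of 1000000, and a ratio is the CWG-cPIP level over the CUG10 level. The median ratio of the 1556 genes was 1.07. A ratio of 2 or more was found for 96 genes, which is 6.17%, and a ratio of 0.5 or less for 15 genes, which is 0.964%. The exact 95% interval excluded 1 for all of these 111 genes. The minimum of counts and the ratio thresholds all but fix that outcome, so it adds no support. The interval lay above 2 for only 16 of the 111 genes and below 0.5 for 3. Most were thinly covered, with fewer than 150 counts in the higher library for 81 of the 96 and 10 of the 15. At the threshold, Ndrg2 stayed just outside with a ratio of 1.9998 and Adck1 just inside with 2.0114. In bulk tissue, fewer cells of a type and less RNA per cell cannot be told apart.

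Interferon-stimulated genes, which cells switch on in response to viral or foreign nucleic acids, were the list with the highest median ratio, 6.41. Of the 62 genes on the list, 13 were listed and 5 reached 50 counts. Oasl2, an antiviral protein of the OAS family, had 12 counts in the CUG10 library and 111 in the CWG-cPIP library, a ratio of 9.88 (95% interval 5.43 to 19.7). Irf7, the regulator of type I interferon genes, had 41 and 253 (6.59, interval 4.72 to 9.40). Xaf1 had 52 and 140 (2.87, interval 2.08 to 4.03). Ifi27 was the exception with 280 and 251 counts and a ratio of 0.957 (interval 0.804 to 1.14).

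The 8 listed interferon genes under 50 counts all had more counts in the CWG-cPIP than in the CUG10 library, among them Irgm1 with 49 and 5, Gbp3 with 30 and 1, Usp18 with 22 and 4, and Irf9 with 17 and 2. For the 5 genes with 50 counts the level in the third library was higher than in the CWG-cPIP library. Over the events with a count in the third library, Irf7 was at 87.6 CPM in the CUG10 library, 578 in the CWG-cPIP library and 5939 in the CUG300 + vehicle library. Oasl2 was at 25.6, 254 and 698 CPM, and Xaf1 at 111, 320 and 2240. For these 3 genes the CWG-cPIP value lay between the other two on this scale. Summed over the whole list, the level was 940, 2313 and 12813 CPM in the same order.

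Antigen presentation genes followed in part. B2m, the light chain of MHC class I molecules, had 999 counts in the CUG10 library and 1916 in the CWG-cPIP library, a ratio of 2.05 (interval 1.896 to 2.213), the deepest gene past the threshold in the higher direction. Scaled by the median of ratios in place of the total, its ratio was 1.98, under the threshold. It was at 2134 CPM in the CUG10 library, 4379 in the CWG-cPIP library and 16751 in the CUG300 + vehicle library. Cd74, the MHC class II invariant chain, had 17 and 68 counts (4.27, interval 2.48 to 7.75) and H2-K1 48 and 89 (1.98, interval 1.38 to 2.87). H2-D1, with 195 and 158 counts, had a ratio of 0.865 (interval 0.697 to 1.07), and H2-T23 one of 1.21 (interval 0.793 to 1.86). The MHC class I heavy chains are close copies of each other, so reads could be split among them. Ly6a, an interferon-inducible surface protein outside both lists, had 24 and 94 counts (4.18, interval 2.65 to 6.85), with 745 CPM in the CUG300 + vehicle library beside 51.3 and 215.

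The 4 microglia and myeloid markers with 50 counts had a median ratio of 1.07 and none was past the threshold. Of microglia and myeloid markers, 9 of 61 genes were listed and the sum over the shared events was 12525 CPM in the CUG10, 13485 in the CWG-cPIP and 13648 in the CUG300 + vehicle library. Most of this sum is Apoe, a lipid carrier also made by astrocytes, at 11328, 12009 and 9862 CPM in the same order. Ctss, a lysosomal protease of microglia, was at 735 and 800 CPM in the pair and at 3096 CPM in the CUG300 + vehicle library. In the pair Ctss had a ratio of 1.09 (interval 0.934 to 1.26) and Apoe one of 1.06 (interval 1.018 to 1.099). Trem2, a microglial receptor, had 9 counts in the CUG10 and 16 in the CWG-cPIP library, and the lysosomal protein Cd68 21 and 47. Microglia genes without a listed event could not be judged. The only T cell marker listed, Il2rg, had 3 counts in the CUG10 and 6 in the CWG-cPIP library. Choroid plexus markers summed to 908 CPM in the CUG10, 905 in the CWG-cPIP and 5584 in the CUG300 + vehicle library over the shared events. Most of this sum is Enpp2, which is also on the myelin list, at 795, 775 and 5352 CPM in the same order. Cab39l was at 100, 114 and 145 CPM. In the pair Enpp2 had a ratio of 0.973 (interval 0.837 to 1.13).

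**Figure D3:**
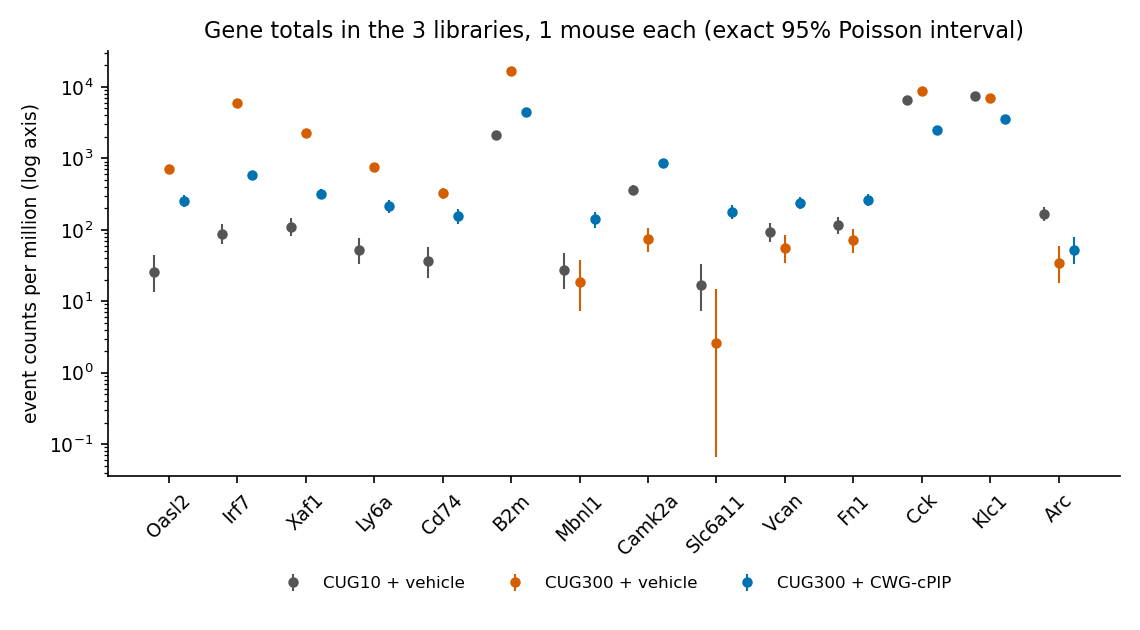
Event CPM of 14 genes in the 3 libraries (log axis), over events with a count in the third library, with the exact 95% Poisson interval. The CWG-cPIP value lies between the other two for Oasl2, Irf7, Xaf1, Ly6a, Cd74, B2m and Arc, is the highest for Mbnl1, Camk2a, Slc6a11, Vcan and Fn1, and is the lowest for Cck and Klc1.

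Several genes were highest in the CWG-cPIP library. Low values in the CUG300 + vehicle library were not particular to these genes. Over the shared events, the synaptic adhesion and release list summed to 36061 CPM in the CUG10 library. It was at 36954 in the CWG-cPIP and 20216 in the CUG300 + vehicle library. Ribosomal proteins went the other way, at 49374, 38314 and 99273 CPM in the same order. The part of transcript length or RNA quality in the third library was not tested. Slc6a11, the GABA transporter GAT-3 of astrocytes, had 8 counts in the CUG10 library, 78 in the CWG-cPIP library and 1 in the CUG300 + vehicle library, and its ratio of 10.4 (interval 5.03 to 24.96) was the highest of all. Mbnl1, the splicing regulator held by CUG repeats, had 13, 61 and 7 counts over 5 events and a ratio of 5.01 (interval 2.72 to 9.94). The deepest event of Mbnl1 had 4 counts in the CUG10 and 15 in the CWG-cPIP library. Its relative Mbnl2 had 169 and 281 counts and a ratio of 1.78 (interval 1.46 to 2.16). Lmtk3, a neuronal kinase, had 11, 50 and 1 counts (4.85, interval 2.49 to 10.3) and Brd2, a bromodomain protein of chromatin, 12, 51 and 14 (4.54, interval 2.39 to 9.35).

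Among synaptic kinases, Camk2a, the main alpha subunit of CaMKII in forebrain neurons, had 171 counts in the CUG10 library, 375 in the CWG-cPIP library and 28 in the CUG300 + vehicle library (ratio 2.34, interval 1.95 to 2.82). Camk2b had 449 and 736 (1.75, interval 1.55 to 1.97) and Camk2d 17 and 65 (4.08, interval 2.37 to 7.43). The Camk2d counts come from 5 events, the deepest with 3 and 18 counts. Fam168b, Ppap2a and Wac were also among the 15 higher genes with the clearest intervals, at ratios of 3.74, 3.80 and 3.00.

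In the synaptic, channel, cytoskeletal and RNA-binding lists the median ratios lay between 1.06 and 1.28, beside 1.07 over all genes. The counts of higher genes are small and stand beside 6.17% of all genes. Of 32 glutamate receptor and postsynaptic genes with 50 counts, 4 were past the threshold, all higher, and the median ratio was 1.28. Iqsec3, a relative of Iqsec1 at inhibitory synapses, was among them beside Camk2a and Camk2d, with a ratio of 2.16. DM1 and MBNL brain targets had 3 of 21 higher and a median of 1.25, and RNA-binding splicing regulators 5 of 47 higher and a median of 1.19. Those 5 were Mbnl1, Luc7l (2.96), Rbm10 (2.42), Hnrnpr (2.05) and Qk (2.04). Scaled by the median of ratios, Hnrnpr and Qk were at 1.98 and 1.97, under the threshold. Neither list had a gene past the lower threshold. Synaptic adhesion and release genes had 3 of 33 higher, Nfasc (2.77), Vamp1 (2.51) and Syt7 (2.22), at a median of 1.06. The cytoskeleton list had 3 of 28, the kinesins Kif1b (2.65) and Kif1a (2.25) and the actin regulator Enah (2.43), at a median of 1.17. Ion channels had 0 of 11 at a median of 1.12.

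Extracellular matrix and astrocyte genes were also above the median. Of 5 matrix genes, 2 were past the threshold, beside 6.17% of all genes. Fewer matrix genes were past it, and fewer tested, with the deepest event alone or skipped exons alone. Vcan, the proteoglycan versican, had 43 counts in the CUG10 library and 105 in the CWG-cPIP library (ratio 2.61, interval 1.81 to 3.81), and Fn1, fibronectin, had 54 and 115 (2.27, interval 1.63 to 3.20). In the CUG300 + vehicle library they had 21 and 27 counts. Sparcl1, a matrix protein secreted by astrocytes, had 480 and 831 (1.85, interval 1.65 to 2.07). Of astrocyte markers, 6 of 28 were listed and 4 reached 50 counts, at ratios from 1.23 for Mlc1 to 2.00 for Ndrg2, with Acsl6 at 1.46. Endothelial and mural markers had 0 of 3 past the threshold at a median of 1.42, with Ly6c1 at 1.74, Ly6e at 1.42 and Bsg at 0.934. Chaperones had 0 of 8 at a median of 1.27.

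Lower genes were fewer and included deep ones. Cck, the neuropeptide cholecystokinin of hippocampal neurons, had 3035 counts in the CUG10 library and 1101 in the CWG-cPIP library, a ratio of 0.387 (interval 0.361 to 0.415). Klc1, a kinesin light chain of axonal transport, had 3478 and 1548 over 11 events (0.475, interval 0.447 to 0.505). Over the events with a count in the third library, Cck was at 6485 CPM in the CUG10, 8680 in the CUG300 + vehicle and 2516 in the CWG-cPIP library, and Klc1 at 7431, 6903 and 3538. The PSI of both kept Cck exons differed by less than 0.002 between the libraries of the pair.

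Arc, an activity-regulated gene of excitatory synapses, had 79 counts in the CUG10 library, 23 in the CWG-cPIP library and 13 in the CUG300 + vehicle library (ratio 0.311, interval 0.186 to 0.4999). It was the only immediate early gene with 50 counts. Of the 5 others listed, Egr3 had 16 and 7 counts and Npas4 7 and 1 in the CUG10 and CWG-cPIP libraries, while Homer1 had 5 and 16 and Per1 33 and 36. Nab2, a corepressor of EGR factors, had 64 and 25 counts (0.417), Tpm2, a tropomyosin, 84 and 29 (0.369), and Nfu1, an iron-sulfur cluster protein of mitochondria, 75 and 26 (0.370). The other lower genes were 9130024F11Rik (0.272), Trpt1 (0.335), 2210408F21Rik (0.345), 3110035E14Rik (0.395), Cox6b2 (0.466), Ubac1 (0.483), Nt5c (0.489), Ccdc85b (0.496) and Tctex1d2 (0.496). For 2210408F21Rik the deepest of 17 events had a ratio of 0.879.

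Neuron markers were split. Of 16 with 50 counts, Camk2a was past the higher and Cck past the lower threshold, and the median ratio was 0.951. Snap25, the presynaptic SNARE protein, was at 0.990, with an interval that spans 1 (0.928 to 1.06). Atp1b1 was at 0.864 (interval 0.812 to 0.920), Nrgn, the postsynaptic protein neurogranin, at 0.546 (interval 0.5002 to 0.595) and Uchl1 at 0.562 (interval 0.519 to 0.609). Of the myelin markers, Mbp was at 0.995 (interval 0.949 to 1.04) and Mag at 0.927 (interval 0.829 to 1.04), both with intervals that span 1. The myelin list had 2 of 9 genes past the higher threshold, beside 6.17% of all genes, and a median of 0.995. The 2 were Nfasc and Qk, both also on neuronal or splicing lists.

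Energy and protein synthesis genes were lower as lists without passing the threshold. None of 34 oxidative phosphorylation genes reached a ratio of 0.5, but 31 were below 1 and the interval lay below 1 for 27. The median was 0.759 and the range 0.524 to 1.20. Ndufb9, a subunit of complex I, had 1157 counts in the CUG10 and 568 in the CWG-cPIP library, and Cox4i1, a subunit of cytochrome c oxidase, 4712 and 2647. Summed over the list, the level was 63920 CPM in the CUG10 library, 46208 in the CWG-cPIP library and 92044 in the CUG300 + vehicle library. Ribosomal proteins had a median of 0.787, with 18 of 24 below 1, and summed to 49374, 38314 and 99273 CPM in the same order. The CWG-cPIP library was the lowest of the 3 for both lists. Over all 1556 genes, the interval lay below 1 for 20.1% and above 1 for 28.7%.

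**Figure D4:**
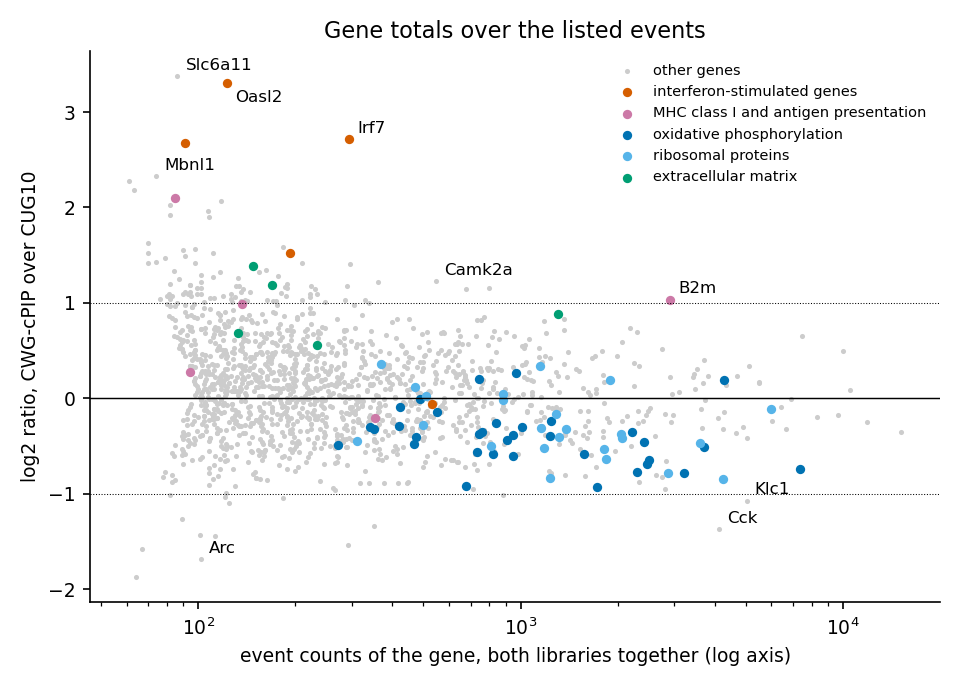
Log2 ratio of CWG-cPIP over CUG10 (y axis) against the counts of a gene in both libraries together (x axis, log axis) for 1556 genes, 5 lists in colour; dotted lines mark a 2-fold difference. Interferon genes lie high apart from Ifi27, most oxidative phosphorylation and ribosomal genes lie between the zero line and the lower dotted line, and B2m, Cck and Klc1 pass a threshold among the deepest genes.

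Transcript length moves with these ratios. In 4 length classes of nearly equal size, by median annotated transcript length, the median ratio was 0.890 up to 1029 nt, 0.953 up to 1799 nt, 1.11 up to 2973 nt and 1.301 above that. Of the 96 higher genes, 50 were in the longest class and 10 in the shortest, and of the 15 lower genes 3 and 7. The median length was 3132.5 nt for the higher genes, 1103 nt for the lower and 1751.5 nt for the rest. Postsynaptic genes, with a median length of 3763 nt, had a median ratio close to that of their class, 1.28 beside 1.301. Oxidative phosphorylation and ribosomal genes, at 707.5 and 713 nt, lay below their class median of 0.890. Interferon genes, at 858.5 nt, and the matrix genes, at 1864 nt, lay above theirs. The part of length or RNA quality in the ratios was not tested.

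**Figure D5:**
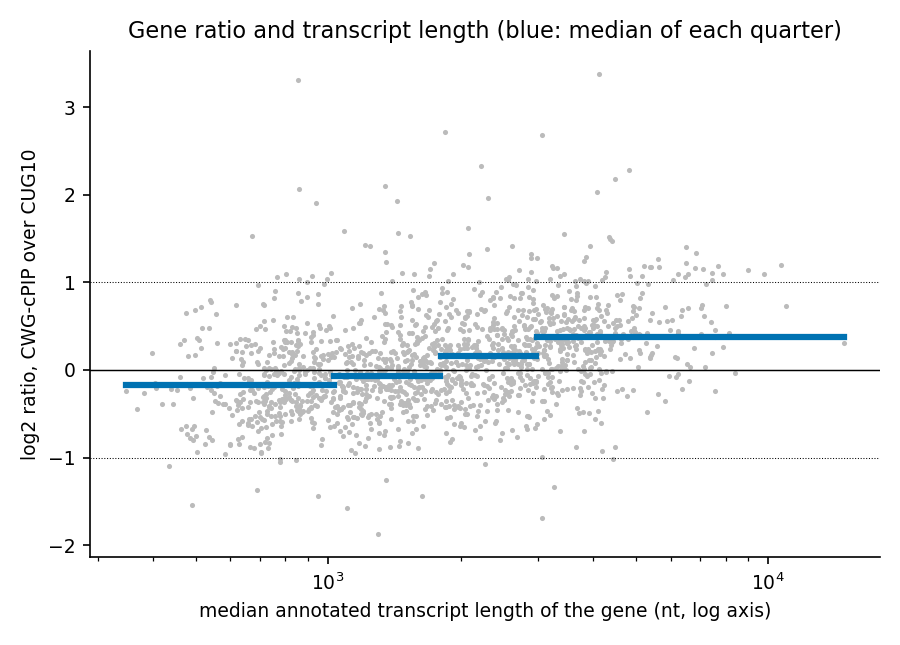
Log2 ratio of CWG-cPIP over CUG10 for each gene against its median annotated transcript length (log axis), with the median of each of 4 length classes as a blue bar and dotted lines at a 2-fold difference. The blue bars climb from the shortest to the longest class, from a ratio of 0.890 to 1.301.

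Genes with CAG or CTG runs of their own were examined because CWG-cPIP binds such repeats. A run of 5 or more units in an annotated transcript was found for 51 of the 1556 genes, with a median ratio of 1.23. Of these, 10 were past the higher threshold (19.6%, beside 6.17% of all genes) and 1, Klc1, past the lower (beside 0.964% of all genes). With 7 or more units it was 5 of 18 higher (27.8%), and with 10 or more 0 of 3. The higher ones included Cd74 with 9 units, Fam168b, Med15, Cab39 and Prrc2b with 7 each, and Hnrnpr with 6. Cd74, Fam168b, Med15 and Cab39 reached the minimum of counts only in the CWG-cPIP library, with 68, 84, 52 and 91 counts. In the CUG10 library they had 17, 24, 18 and 45. Prrc2b reached it in both, with 540 and 259. The same minimum applied to all genes, and its part in these shares was not tested. Klc1 has 8 units. The longest runs were those of Mapkap1 (25 units), Bcan (14 units) and Chga (11 units), and their ratios were 0.826 (interval 0.611 to 1.11), 1.47 (interval 1.13 to 1.93) and 0.880 (interval 0.585 to 1.32). The median transcript length of the 51 genes was 2268 nt.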

How the data were processed

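Per the labels, total RNA of mouse hippocampus was made into directional libraries, and the submitters' processing notes name Trim Galore 0.6.6, STAR 2.7.9a, RSEM 1.3.3, DESeq2 1.36.0 and mm10. The authors deposited rMATS tables of counts per event (junction and exon-body reads) for each pair of libraries. The authors also deposited inclusion levels as a fraction from 0 to 1, which rMATS made by dividing each count by the effective length of its form; these served to check the recomputed PSI (largest deviation 0.0005). Their p-values, adjusted p-values and inclusion differences were not used. A library's counts were identical in both tables that hold it at all 14737 shared events.

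PSI, exact binomial and Newcombe 95% intervals, Fisher's exact test with Benjamini-Hochberg adjustment, and gene ratios with exact conditional binomial intervals were computed with scipy 1.17.1 and pandas 2.3.3, and tested on simulated data. Named events and genes were taken by distance of their interval from no difference, overall and within 22 gene lists, plus Mapt, Grin1, App and Mbnl1. Members and lists were chosen with earlier results of these data known. The markers with most counts, genes under 50 counts, and examples from the metabolic and repeat lists were added after their values were seen. Intervals cover counting error only, since each group holds 1 mouse. Reads carried no molecular identifiers and can count in several events, so the intervals can be too narrow. Transcript lengths and sequences came from GENCODE M21 (1554 of 1556 genes matched by symbol or synonym). The read length behind the tables could not be settled. Some named events and genes are not reported here.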

Additional observations from a re-analysis of the deposited data

How the results depend on the processing

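With 1 mouse in a group, leaving out a library was not possible, and the shallow events limit what can be called. The 5 called events became 8 with adjustment within each event type and 75 with the Newcombe interval in place of the test, and stayed at 4 or 5 otherwise. The 265 events past the size threshold became 119 without division by form length, 735 with at least 10 counts in both libraries and 66 with at least 50. The share of events with higher PSI in the CWG-cPIP library was 50.5% and lay between 50.2% and 52.1% under the alternatives run. Past the 2-fold threshold were 96 genes higher and 15 lower, and with at least 100 counts in one library 34 and 6. With the deepest event alone 55 genes were higher and 14 lower, and with skipped exons alone 79 and 8.

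Within the lists, the deepest event alone left 2 of 3 interferon genes higher, 1 of 4 matrix, 1 of 38 splicing regulator, 1 of 25 postsynaptic and 0 of 14 DM1 genes. Skipped exons alone left 0 of 2 matrix, 1 of 32 splicing regulator, 2 of 26 postsynaptic and 1 of 18 DM1 genes. A minimum of 100 counts left 1 of 2 MHC, 2 of 33 splicing regulator, 1 of 24 postsynaptic and 0 of 13 DM1 genes. Scaling by the median of ratios left 1 of 5 MHC genes, Cd74, and 3 of 47 splicing regulators higher, so B2m then lies under the threshold. These alternatives test fewer genes, apart from the scaling. Counts below 1 for oxidative phosphorylation and ribosomal genes moved by less than 1.5 times.

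Over events listed in all 3 pairs, the share past the size threshold was 7.40% for CWG-cPIP and CUG10, 11.7% for CUG300 + vehicle and CUG10 and 14.4% for both CUG300 libraries, against 8.56%, 9.34% and 11.3% over the events kept in each pair. No named event or gene changed direction. No paired analysis was possible because each group holds 1 mouse.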
